A study of Mus musculus with 11 samples.

Results

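Mitochondrial ribosomal protein genes were measured in CD11b+ myeloid cells taken from irradiated mouse tumours of 3 host genotypes. The genes were chosen by name: every symbol that starts with Mrpl or Mrps followed by a digit, pseudogene symbols left out, with a mean of at least 1 RPKM (reads counted on a gene, divided by its transcript's length in kilobases and by the size of the library) over all 11 libraries. This gave 76 of the 22068 symbols in the files, 47 named Mrpl and 29 named Mrps, and all 76 passed the filter on low values that 10557 genes passed. No symbol of that form fell below 1 RPKM, the lowest being Mrpl1 with a mean of 3.01 RPKM, and no value of any of the 76 was 0.

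Wild-type mice (WT, 3 libraries), mice without Tlr9 (TLR9-/-, called TLR9KO, 4 libraries) and mice with an Mx-Cre transgene and a floxed Stat3 gene (MxCre/Stat3flox, called STAT3KO, 4 libraries) carried subcutaneous tumours, all on a C57BL/6 background. Every group, WT included, received 15 Gy of local radiation, and CD11b+ cells were isolated on day 4 afterwards, so the libraries compare genotypes under irradiation. Mx-Cre is driven by the interferon-inducible Mx1 promoter, is active in many cell types when induced, and so is not restricted to the cells isolated here. Stat3 stood at 73.1 ± 2.78 RPKM in WT (SD, n = 3), 64.3 ± 4.27 in TLR9KO (n = 4) and 18.2 ± 1.85 in STAT3KO (n = 4), and Tlr9 stood at 30.3 ± 10.6, 5.77 ± 1.72 and 32.5 ± 19.5 RPKM in the same order. The labels do not state that replicates came from separate animals, so p-values measure the spread between these libraries, which may be technical.

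The mitochondrial ribosome makes the small set of proteins encoded in mitochondrial DNA, all of them core subunits of the respiratory chain and ATP synthase. Its RNAs come from the mitochondrial genome, while all of its proteins are encoded in the nucleus, made in the cytosol and imported. Promoters of such nuclear genes often hold sites for ETS-family factors such as GABP, for the factor NRF1 and for YY1, and macrophages are known to alter mitochondrial metabolism with their activation state.

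RefSeq promoter windows (GRCm38.p6, 250 bases before to 50 bases after each start, 300 bases in all) were found for 67 of the 76 genes, in 73 windows. On either strand, the ETS core CCGGAAG stood in 32.9% of the members' windows, against 8.86% of all 32851 windows and 18.3% of the windows of tested genes. The NRF1 core GCGCANGCG stood in 20.5%, against 6.25% and 13.8%, and the YY1 core AAGATGGCG in 11.0%, against 1.40% and 3.18%. At least 1 of these 3 cores was found in 54.8% of the members' windows, against 14.8% of all windows and 31.1% of those of tested genes. The STAT pattern TTCNNNGAA was found in 8.22% of members' windows, against 8.30% of all and 6.80% of tested genes' windows. The CCAAT box was found in 41.1% (37.4% of all and 37.4% of tested), the E-box CACGTG in 9.59% (7.15% and 10.4%) and the ERR core CAAGGTCA in 2.74% (1.56% and 1.06%). The NRF1 core and its reverse complement overlap, so 1 stretch can match on both strands. A match describes the letters and is not evidence of binding.

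The stretches below show the cores at genes whose levels are described later. The ETS core, or its reverse complement CTTCCGG, is in capitals, and for Mrpl37 the YY1 core is. Each is written 5′ to 3′ on the gene's strand.
Mrpl33 (chr5:31613937-31613966, plus strand): ccgcgcatgccCCGGAAGtagtcgttgagc
Mrpl21 (chr19:3283038-3283067, plus strand): cgctgcttccgCTTCCGGttgggactgtgg
Mrps33 (chr6:39810887-39810916, minus strand): aagtaaaggggggcgggcCTTCCGGggacg
Mrpl27 (chr11:94653725-94653754, plus strand): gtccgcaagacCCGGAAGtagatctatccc
Mrps21 (chr3:95871478-95871507, minus strand): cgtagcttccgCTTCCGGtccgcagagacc
Mrps18c (chr5:100798592-100798621, plus strand): gggtcacgtgaCTTCCGGcccgggaagcgc
Mrps18b (chr17:35916391-35916420, minus strand): tgtcccgagcatgcgcagtcgctCTTCCGG
Mrpl37 (chr4:107066822-107066851, minus strand): ctgcacgggcaAAGATGGCGgcgtccaggt

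The 250 bases before the start in 2 windows, of a gene with an ETS core and a gene with several NRF1 cores, show the cores in their setting. Capitals mark the ETS core for Mrpl27 and every match to the NRF1 core, on either strand, for Mrpl32.
Mrpl27 (chr11:94653541-94653790, plus strand): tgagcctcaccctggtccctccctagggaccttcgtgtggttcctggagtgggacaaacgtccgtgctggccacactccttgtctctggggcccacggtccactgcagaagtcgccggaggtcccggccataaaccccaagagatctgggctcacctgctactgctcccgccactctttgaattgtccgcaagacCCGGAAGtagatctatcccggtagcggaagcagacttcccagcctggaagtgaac
Mrpl32 (chr13:14613038-14613287, minus strand): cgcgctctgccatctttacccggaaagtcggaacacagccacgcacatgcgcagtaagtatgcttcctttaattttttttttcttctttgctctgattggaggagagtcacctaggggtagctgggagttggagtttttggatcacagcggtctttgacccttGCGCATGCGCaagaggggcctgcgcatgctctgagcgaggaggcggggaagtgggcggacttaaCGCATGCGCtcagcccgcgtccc

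Of the 67 genes with a window, 24 held the ETS core and 43 did not. In STAT3KO against WT, 20 of the 24 and 30 of the 43 rose at an adjusted p under 0.05, where 29.2% of all tested genes rose, with median log2 differences of 0.61 and 0.42. In TLR9KO against WT, 10 of 24 and 17 of 43 rose, where 20.0% of all tested genes rose, with medians of 0.23 and 0.27. The other cores were split in the same way for STAT3KO against WT. The medians with and without the core were 0.45 and 0.49 for NRF1, 0.26 and 0.49 for YY1 and 0.70 and 0.45 for STAT. They were 0.61 and 0.48 for ERR, 0.40 and 0.56 for CCAAT and 0.40 and 0.49 for the E-box. Only 8 genes held the YY1 core, 6 the STAT pattern, 5 the E-box and 2 the ERR core. These counts and medians are a description without a test. The ETS core stood in both the gene with the largest rise in STAT3KO, Mrpl33, and in Mrps18b, 1 of the 2 genes that fell in TLR9KO.

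Levels of the 76 genes spanned from 3.01 to 56.9 RPKM in their means over the 11 libraries, with a median of 19.2 RPKM. The 4 highest were Mrpl52 (56.9 RPKM), Mrpl12 (55.3), Mrpl54 (55.3) and Mrps21 (53.4), and the 3 lowest were Mrpl1 (3.01), Mrps31 (4.73) and Mrpl41 (5.05). Ordered by their WT means, 70 of the 75 neighbouring pairs overlapped in their WT values, so the fine order is not resolved. Nearly all of the products assemble into 1 particle, and their transcript levels per length differed by more than a factor of 10 within a group, from 1.66 to 54.2 RPKM in the WT means. The transcripts were short, with a median of 1225 bases against 2921 for all tested genes, and 59 of 76 were shorter than that all-gene median. Their median GC content was 51.0% against 50.4%.

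The summed level of the 76 genes was 1456, 1289.8 and 1365 RPKM in the 3 WT libraries, 1408, 1670.2, 1787 and 1545 RPKM in TLR9KO, and 1914, 2056, 1848 and 1933 RPKM in STAT3KO. All 4 STAT3KO sums lay above the 7 others, whereas TLR9KO replicate 1 lay within the WT range. The sums were 0.325 to 0.366% of all RPKM in WT, 0.360 to 0.410% in TLR9KO and 0.426 to 0.456% in STAT3KO. STAT3KO had the highest mean of the 3 genotypes for 68 genes and WT the lowest for 58. For 53 genes the means ran WT, TLR9KO, STAT3KO in rising order. These orders were not counted over all tested genes. Of those 10557 genes, 6235 had a log2 difference above 0 in STAT3KO against WT. In bulk samples such as these, fewer cells of a type and less RNA per cell cannot be told apart.

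**Figure D1:**
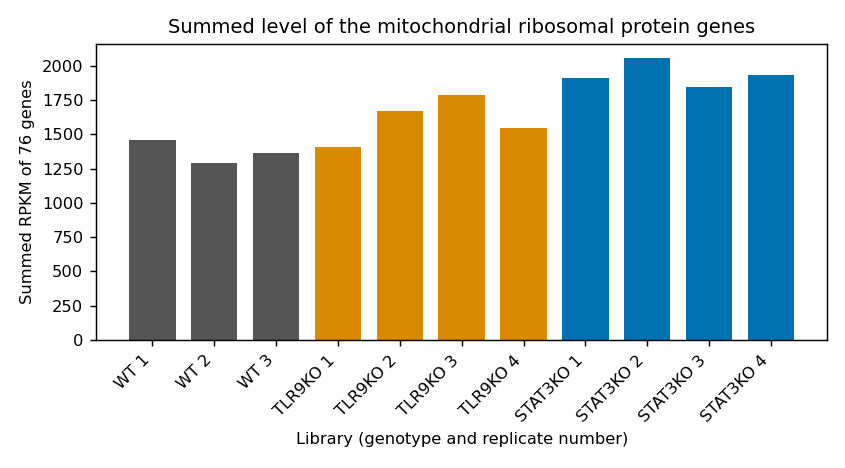
Summed RPKM of the 76 mitochondrial ribosomal protein genes (y axis) in each of the 11 libraries (x axis), 1 bar a library, coloured by genotype. The STAT3KO bars stand at 1848 to 2056 RPKM, above every WT and TLR9KO bar, and TLR9KO replicate 1 at 1408 RPKM stands within the WT range.

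Some libraries stood high or low within their genotype for many of the 76 genes at once. TLR9KO replicate 1 was the lowest of its group for 58 of the 76 genes and TLR9KO replicate 3 the highest for 48. WT replicate 1 was the highest of its group for 47 and WT replicate 2 the lowest for 43, and STAT3KO replicate 2 was the highest for 39. The median coefficient of variation over the 76 genes was 7.99% in WT, 11.1% in TLR9KO and 7.09% in STAT3KO. The deposited values give no depth, but low values of microRNA genes, which lie near whole multiples of 1 read, gave an estimate of 30 to 53.45 M reads a library. Over all tested genes, the correlation of log2 values was 0.96 to 0.99 between libraries of 1 genotype and 0.93 to 0.98 between genotypes. The labels name no batch. The first header word differs between the STAT3KO files and the others, so any difference in how they were made cannot be told apart from genotype.

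Loss of Stat3 was compared with WT to ask how these genes stand in myeloid cells of irradiated tumours when Stat3 is deleted. In STAT3KO, 55 of the 76 genes rose and none fell (limma on log2(RPKM + 1), adjusted p under 0.05 over 10557 genes), where 29.2% of all tested genes rose and 14.8% fell. The median log2 difference was 0.44 against 0.09 over all genes tested, and the 76 differences ran from −0.14 to 1.36, with 73 above 0. The groups did not overlap, STAT3KO above WT, for 59 genes, and no gene was separated the other way (30.8% and 16.9% of tested genes were). The STAT3KO mean was at least 150% of the WT mean for 30 genes and at least 200% for 10.

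Genes of the large subunit, the part of the ribosome that joins amino acids into the chain, numbered 48 with Mrps18a, whose protein sits in that subunit. Of these, 36 rose and none fell in STAT3KO, with a median log2 difference of 0.49, where 29.2% of all tested genes rose and 14.8% fell. Mrpl33, a small protein with a bacterial counterpart, stood at 27.1, 27.9 and 20.3 RPKM in WT and at 59.5, 65.2, 67.8 and 69.95 in STAT3KO. Its STAT3KO values were all above the WT values, and the mean was 261% of that in WT (1.36 ± 0.17, limma adjusted p = 0.000138). Mrpl21, which likewise has a bacterial counterpart, stood at 3.73, 5.08 and 4.20 RPKM in WT and 10.7, 12.5, 11.6 and 9.89 in STAT3KO, again with no overlap (1.19 ± 0.14, limma adjusted p = 0.000104). These were the 2 largest log2 differences of the 76 genes, and both were singled out after their values were seen.

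Mrpl46, a protein found in mitochondrial but not bacterial ribosomes, had little spread, with 8.07, 8.14 and 8.39 RPKM in WT and 17.2, 16.3, 17.3 and 15.7 in STAT3KO. The lowest STAT3KO library stood well clear of the highest WT library, and the log2 difference was 0.94 ± 0.08, limma adjusted p = 2.18e-05. Mrpl27, whose bacterial counterpart reaches toward the site of peptide bond formation, stood at 18.00, 17.4 and 16.03 RPKM in WT and 36.9, 34.6, 35.1 and 36.4 in STAT3KO (1.02 ± 0.10, limma adjusted p = 3.66e-05). Mrpl49, also specific to mitochondrial ribosomes, stood at 5.98, 6.43 and 6.65 and at 11.3, 11.3, 11.9 and 11.7 RPKM (0.77 ± 0.07, limma adjusted p = 3.49e-05). For neither gene did any STAT3KO library reach down to a WT library. Mrpl32, which matures by cleavage with the m-AAA protease of the inner membrane, rose from 7.85, 10.6 and 9.51 to 17.9, 18.4, 21.4 and 19.3 RPKM (0.98 ± 0.11, limma adjusted p = 9.71e-05). Mrpl13 was higher by 1.05 ± 0.13, Mrpl52 by 0.81 ± 0.11, Mrpl18 by 0.78 ± 0.11 and Mrpl9 by 0.59 ± 0.09 on the log2 scale (limma adjusted p = 0.000185, 0.000233, 0.000316 and 0.000371).

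Among the 12 large-subunit genes that did not pass were Mrpl12, which with Mrpl10 forms the stalk that recruits translation factors, and Mrpl37, a mitochondria-specific protein. Mrpl12 stood at 62.2, 43.5 and 56.98 RPKM in WT and 67.5, 75.1, 55.4 and 62.5 in STAT3KO, and the groups overlapped (0.27 ± 0.14, limma adjusted p = 0.14). Mrpl37 had the lowest log2 difference of the 76 genes, −0.14 ± 0.08, limma adjusted p = 0.169, with 27.4, 22.9 and 25.2 RPKM in WT and 21.98, 22.8, 22.5 and 23.4 in STAT3KO. Mrpl10 and Mrpl14 were the only other genes with a difference below 0, at −0.04 ± 0.07 and −0.01 ± 0.10.

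Genes of the small subunit, which holds the messenger RNA and reads its codons, numbered 27 when Mrps18a and Mrps36 are left out. Of these, 18 rose and none fell in STAT3KO (median log2 difference 0.36), where 29.2% of all tested genes rose and 14.8% fell. Mrps33, a mitochondria-specific protein, stood at 10.4, 10.6 and 11.5 RPKM in WT and at 23.6, 22.7, 24.9 and 25.3 in STAT3KO. The STAT3KO mean was 222% of the WT mean, with no overlap (1.08 ± 0.09, limma adjusted p = 2.18e-05). Mrps28 stood at 13.2, 11.9 and 11.5 and 24.9, 29.6, 24.2 and 22.2 RPKM (0.99 ± 0.12, limma adjusted p = 0.000122), and Mrps31, 1 of the 3 genes of lowest mean, at 2.83, 3.34 and 2.84 and 6.38, 6.16, 5.92 and 6.73 RPKM (0.87 ± 0.09, limma adjusted p = 7.07e-05). Both were separated between the genotypes in every library. Mrps21, whose protein has a bacterial counterpart, rose by 0.87 ± 0.13 (limma adjusted p = 0.000552).

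The 3 paralogues of bacterial S18 are given side by side. Mrps18c stood at 13.8, 12.3 and 15.7 RPKM in WT and 25.2, 22.7, 27.5 and 29.3 in STAT3KO (0.86 ± 0.13, limma adjusted p = 0.000434). Mrps18a stood at 36.8, 30.9 and 38.9 and 47.8, 49.9, 45.2 and 45.4 RPKM (0.40 ± 0.09, limma adjusted p = 0.00478), and Mrps18b at 35.7, 28.7 and 30.4 and 33.3, 37.9, 26.9 and 30.9 RPKM (0.02 ± 0.12, limma adjusted p = 0.884). The first pair of genes was separated between the genotypes and Mrps18b overlapped. The differences between paralogues were not tested. Mrps36, which despite its symbol is now known as a subunit of the oxoglutarate dehydrogenase complex and was counted with neither subunit, stood at 16.9, 15.8 and 12.96 and 23.6, 23.9, 19.9 and 22.8 RPKM (0.54 ± 0.13, limma adjusted p = 0.00543). Mrps30, listed here with the small subunit by its symbol although its protein sits in the large subunit, rose by 0.20 ± 0.07 (limma adjusted p = 0.0354), a call lost in 7 of the 11 omissions of 1 library (adjusted p up to 0.104) and with median-ratio scaling (adjusted p = 0.476).

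**Figure D2:**
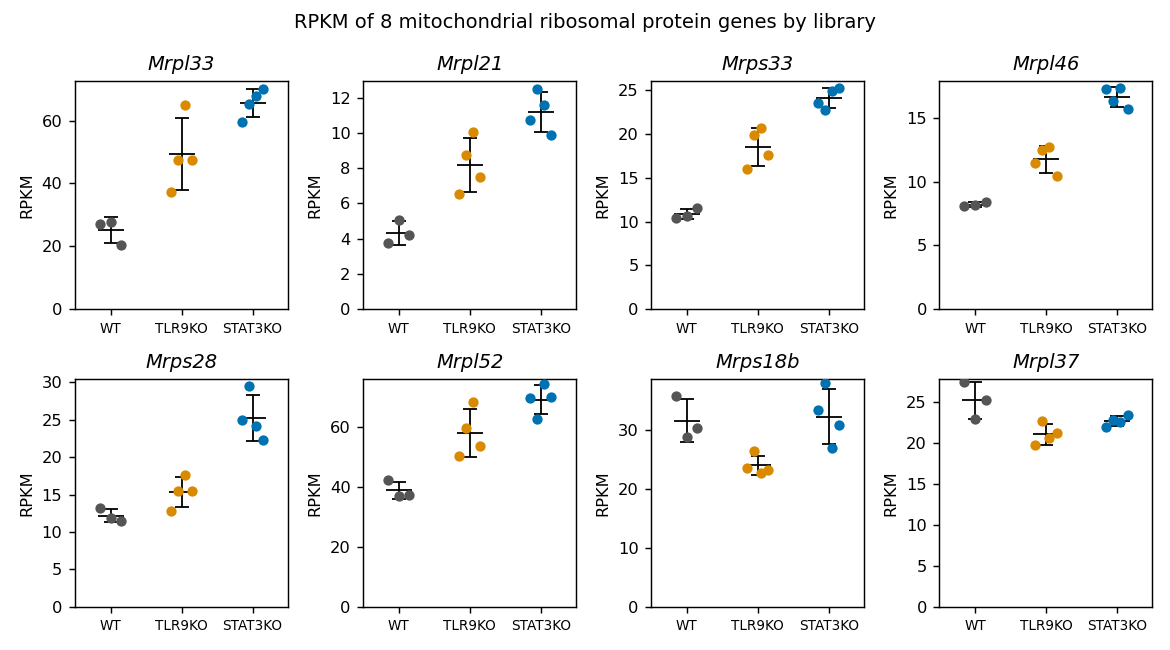
RPKM (y axis, from 0) of 8 mitochondrial ribosomal protein genes by genotype (x axis), 1 point a library, with the mean and SD as bars (n = 3, 4 and 4). Mrpl33, Mrpl21, Mrps33, Mrpl46, Mrps28 and Mrpl52 are higher in every STAT3KO library than in every WT library, while Mrps18b and Mrpl37 are lower in every TLR9KO library than in every WT library.

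Loss of Tlr9 was compared with the same WT libraries, which the 2 comparisons therefore share, so their values are given side by side and not as support for each other. In TLR9KO, 28 of the 76 genes rose and 2 fell (limma, adjusted p under 0.05), where 20.0% of all tested genes rose and 10.6% fell. The median log2 difference was 0.20 against 0.04 over all genes tested. The groups did not overlap for 36 genes with TLR9KO above WT and for 4 with TLR9KO below it, namely Mrpl2, Mrps18b, Mrpl37 and Mrps30 (22.8% and 13.3% of tested genes). The mean was at least 150% of that in WT for 13 genes. TLR9KO had the lowest mean of the 3 genotypes for 18 genes, a count not made over all tested genes.

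In the large subunit, 20 of 48 genes rose and 1 fell (median log2 difference 0.26), where 20.0% of all tested genes rose and 10.6% fell. The GC and length correction described below left 10 that rose and 2 that fell, with a median of 0.07 (8.39% and 6.38% of tested genes). Mrpl33 stood at 37.3, 47.6, 65.1 and 47.5 RPKM in TLR9KO, all above its WT values (0.93 ± 0.17, limma adjusted p = 0.00231). Mrpl13, whose bacterial counterpart acts early in assembly of the large subunit, stood at 21.6, 18.2 and 20.98 RPKM in WT and 28.4, 39.1, 44.7 and 33.4 in TLR9KO (0.80 ± 0.13, limma adjusted p = 0.00178). Mrpl18, whose bacterial counterpart binds the small RNA of the large subunit, stood at 17.1, 17.9 and 13.8 RPKM in WT, 23.6, 29.4, 31.01 and 27.2 in TLR9KO and 27.3, 29.4, 27.8 and 29.8 in STAT3KO, the knockouts overlapping each other and not WT (0.74 ± 0.11, limma adjusted p = 0.00104).

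Mrpl22, a protein at the exit tunnel of the growing chain, showed the same layout, with 6.10, 6.40 and 6.19 RPKM in WT, 8.21, 9.26, 10.4 and 9.48 in TLR9KO and 10.6, 10.4, 9.26 and 10.4 in STAT3KO (0.51 ± 0.09, limma adjusted p = 0.00175). Mrpl1, the gene of lowest mean, stood at 1.85, 1.51 and 1.61 RPKM in WT and 2.20, 3.63, 4.33 and 3.55 in TLR9KO (0.71 ± 0.15, limma adjusted p = 0.006). Mrpl41, another gene of low level, stood at 3.91, 3.78 and 3.99 and 5.08, 5.45, 5.82 and 5.33 RPKM (0.39 ± 0.07, limma adjusted p = 0.00236). Mrpl32 rose by 0.76 ± 0.11, Mrpl52 by 0.56 ± 0.11, Mrpl27 by 0.52 ± 0.10 and Mrpl46 by 0.47 ± 0.08 in TLR9KO (limma adjusted p = 0.00102, 0.00353, 0.00307 and 0.00202).

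In the small subunit, 7 of 27 genes rose and 1 fell (median log2 difference 0.17), where 20.0% of all tested genes rose and 10.6% fell. With the GC and length correction described below, 1 rose and 2 fell, with a median of −0.009, where 8.39% of tested genes rose and 6.38% fell. Mrps33 stood at 15.99, 19.9, 20.7 and 17.6 RPKM in TLR9KO, between WT and STAT3KO without touching either (0.71 ± 0.09, limma adjusted p = 0.000593). Mrps18c, Mrps21 and Mrps31 rose by 0.73 ± 0.13, 0.70 ± 0.13 and 0.44 ± 0.09 (limma adjusted p = 0.00218, 0.00322 and 0.00567). Mrps36 rose by 0.57 ± 0.13 (limma adjusted p = 0.00649).

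Both genes that fell in TLR9KO did so by modest amounts. Mrps18b stood at 35.7, 28.7 and 30.4 RPKM in WT and 23.5, 26.4, 22.7 and 23.3 in TLR9KO, 75.9% of the WT mean (−0.38 ± 0.12, limma adjusted p = 0.0299). Mrpl37 stood at 27.4, 22.9 and 25.2 and 19.7, 22.7, 20.6 and 21.2 RPKM, 83.6% of the WT mean (−0.25 ± 0.08, limma adjusted p = 0.0366). Every TLR9KO library was below every WT library for both, by a narrow margin for Mrpl37. Both calls were lost when certain single libraries were left out: that of Mrps18b was lost without WT replicate 1 (limma adjusted p = 0.133), WT replicate 3, TLR9KO replicate 3 or TLR9KO replicate 4, and without the filter on low values (0.0636). That of Mrpl37 was lost in 8 of the 11 omissions, with a limma adjusted p of up to 0.161 (without WT replicate 1). Mrps30 and Mrpl2, a protein of the catalytic core, were separated in the same direction without passing the test (−0.13 ± 0.07, limma adjusted p = 0.173, and −0.31 ± 0.13, limma adjusted p = 0.0923).

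The knockouts were also compared with each other. In STAT3KO against TLR9KO, 29 of the 76 genes were higher and none lower (limma, adjusted p under 0.05), where 13.4% of all tested genes were higher and 9.46% lower. The median log2 difference was 0.24 against 0.06 over all genes tested, and 35 genes were separated with STAT3KO above (16.4% of tested genes) and none with STAT3KO below (10.6%). By subunit, 19 of 48 large-subunit and 10 of 27 small-subunit genes were higher. The count moved with single libraries: it was 12 without STAT3KO replicate 2, 15 without STAT3KO replicate 1, 15 without TLR9KO replicate 4, 18 without TLR9KO replicate 1 and 19 without TLR9KO replicate 2. With median-ratio scaling of the libraries it was 15, where 8.71% of tested genes were higher and 11.3% lower.

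Mrps28 had the largest of these differences, with 12.8, 15.5, 17.6 and 15.5 RPKM in TLR9KO against 24.9, 29.6, 24.2 and 22.2 in STAT3KO (0.68 ± 0.11, limma adjusted p = 0.00198). Its TLR9KO values overlapped those of WT (0.30 ± 0.12, limma adjusted p = 0.0731), so that STAT3KO stood apart from both. Mrpl9 was laid out in the same way, with 16.8, 14.2 and 16.3 RPKM in WT, 16.4, 19.5, 18.6 and 18.1 in TLR9KO and 24.8, 25.7, 22.8 and 23.5 in STAT3KO (0.40 ± 0.08, limma adjusted p = 0.00612). Mrpl12 was lowest in TLR9KO, at 40.5, 50.3, 45.97 and 48.4 RPKM, and differed between the knockouts (0.48 ± 0.13, limma adjusted p = 0.0213), although neither knockout passed against WT. Mrpl54 stood at 51.2, 48.8 and 54.4, 45.9, 47.5, 55.8 and 51.9 and 59.8, 70.6, 61.6 and 60.6 RPKM in WT, TLR9KO and STAT3KO (0.32 ± 0.08, limma adjusted p = 0.02). Mrps18b was higher in STAT3KO than in TLR9KO by 0.41 ± 0.11 (limma adjusted p = 0.022). Without STAT3KO replicate 2 the calls of Mrpl12, Mrpl54 and Mrps18b were lost (limma adjusted p = 0.0575, 0.0504 and 0.0536). They were also lost without STAT3KO replicate 1 (Mrpl12 and Mrps18b), TLR9KO replicate 4 (Mrps18b) or TLR9KO replicate 2 (Mrpl54).

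For 10 genes no 2 of the 3 genotypes overlapped: Mrpl43, Mrpl27, Mrps33, Mrpl44, Mrps30, Mrpl46, Mrps35, Mrpl45, Mrpl49 and Mrps31. In 9 of them the order was WT, TLR9KO, STAT3KO, and Mrps30 was the exception. Separation in all 3 pairs was not counted over all tested genes, so this count and order have no baseline here. Mrps30 stood at 11.5, 12.5, 13.2 and 12.6 RPKM in TLR9KO, 13.8, 13.9 and 13.3 in WT and 15.4, 16.2, 15.7 and 16.04 in STAT3KO, with a difference between the knockouts of 0.33 ± 0.06, limma adjusted p = 0.00519. Mrpl46 was nearly evenly stepped, TLR9KO standing 0.47 ± 0.08 above WT and 0.47 ± 0.08 below STAT3KO on the log2 scale (limma adjusted p = 0.00202 and 0.00205). Mrpl44, a protein related to double-strand RNA nucleases, stood at 12.2, 9.14 and 11.7, 13.8, 14.3, 13.6 and 12.3 and 17.01, 18.97, 14.7 and 16.8 RPKM in WT, TLR9KO and STAT3KO. It passed only between STAT3KO and WT (0.58 ± 0.11, limma adjusted p = 0.0018).

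**Figure D3:**
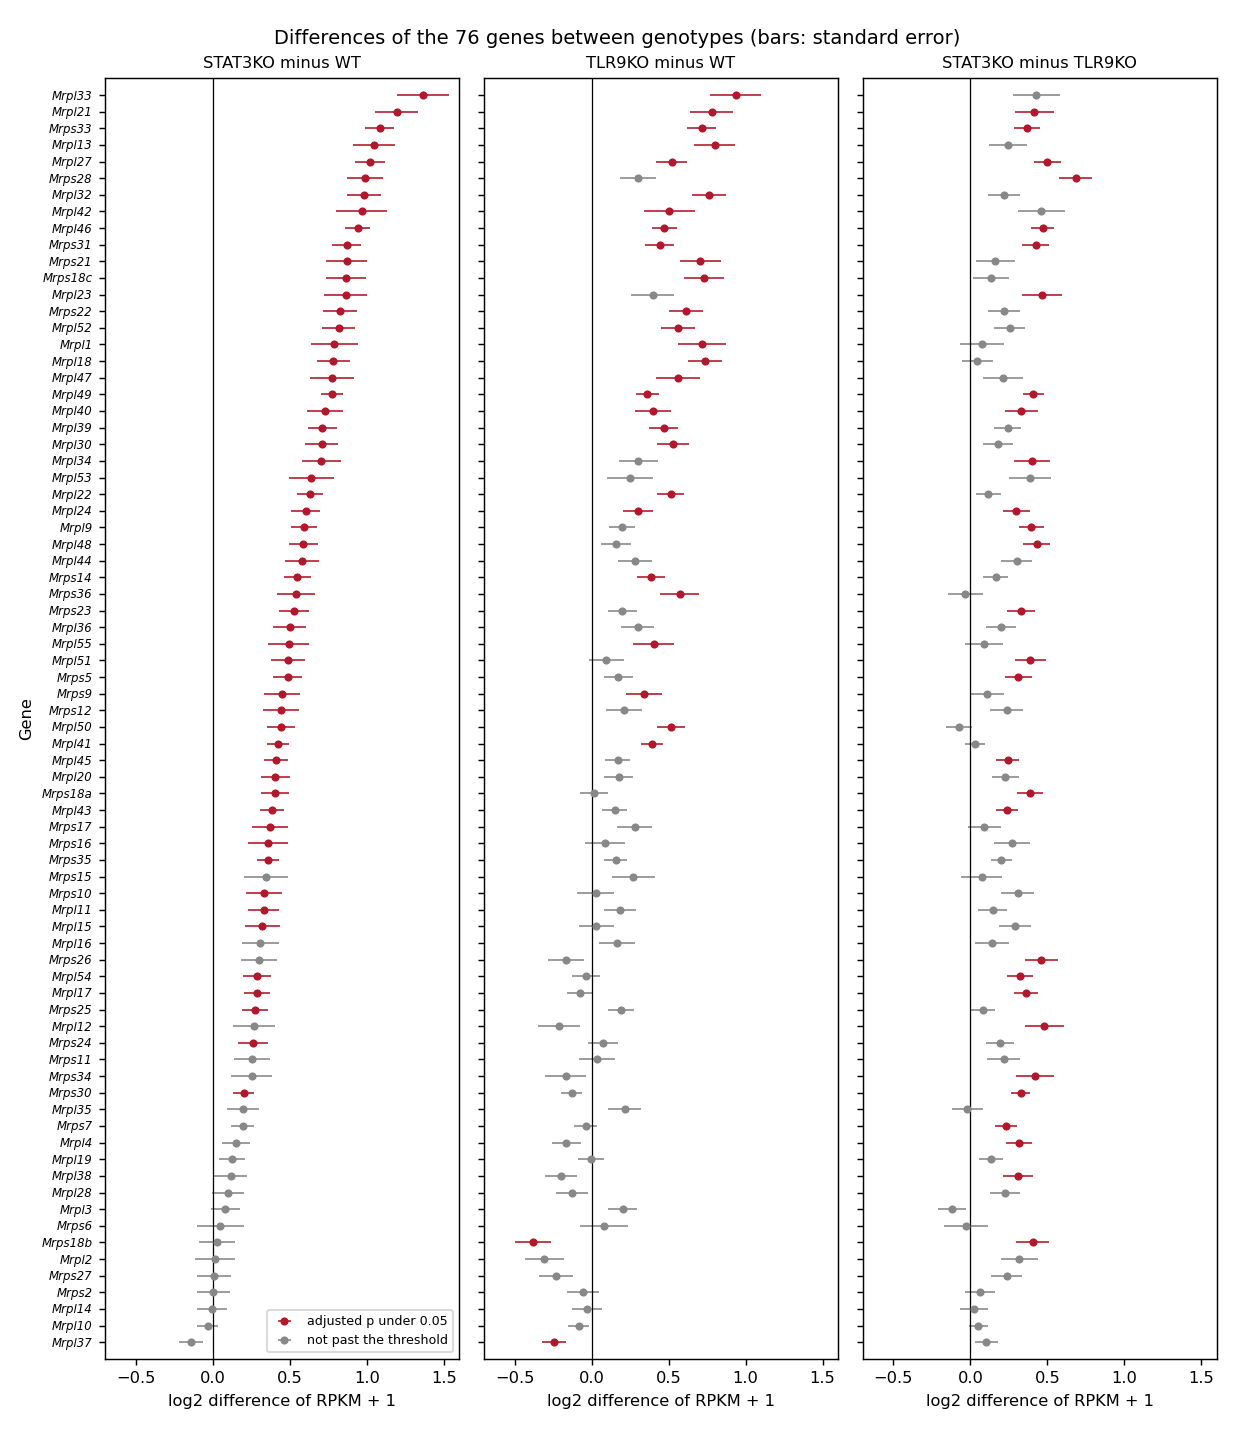
Log2 difference of RPKM + 1 (x axis) with its standard error for each of the 76 genes (y axis, ordered by STAT3KO minus WT), in 3 panels for the 3 comparisons, which share libraries. Red points passed an adjusted p under 0.05: 55 rose in STAT3KO against WT, 28 rose and 2 fell in TLR9KO against WT, and 29 were higher in STAT3KO than in TLR9KO.

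The differences moved with sequence composition and length, among the 76 genes and among all genes. Across the 76 genes, which share the same libraries, Spearman's rho between GC content and the log2 difference was −0.26 in STAT3KO against WT, −0.36 in TLR9KO against WT and 0.20 in STAT3KO against TLR9KO. Over 10428 tested genes it was −0.23, −0.55 and 0.32. With transcript length it was −0.28, −0.26 and −0.10 across the 76 genes, and −0.34, −0.20 and −0.27 over all. In TLR9KO against WT, 13 of the 25 genes of lowest GC content rose, with a median log2 difference of 0.38, and 6 of the 26 of highest GC content, with a median of 0.07. In STAT3KO against WT the counts were 22 of 25 and 14 of 26, with medians of 0.54 and 0.32. Between the knockouts the order was turned, with 7 of 25 and 13 of 26.

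After each library's trend with GC content and length over all tested genes was subtracted, 29 genes rose and 5 fell in STAT3KO against WT (20.5% and 18.0% of tested genes), with a median of 0.19. Of the 55 genes called before, 29 kept the call, 18 lost it and 8 changed sign. The 5 that fell were Mrpl37, Mrpl10, Mrpl14, Mrpl2 and Mrps18b; Mrpl37, for example, stood at −0.32 ± 0.06 (limma adjusted p = 0.00229). In TLR9KO against WT, 11 rose and 4 fell (8.39% and 6.38% of tested genes), 13 of the 30 calls were kept, and Mrpl2 and Mrps30 joined the genes that fell. In STAT3KO against TLR9KO, 15 were higher and 2 lower (9.72% and 9.64%). By subunit, 20 of 48 large-subunit genes rose and 4 fell in STAT3KO against WT, and 9 of 27 small-subunit genes rose and 1 fell.

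Mrpl46 kept its call in all 3 comparisons under this correction (0.58 ± 0.07, 0.34 ± 0.07 and 0.24 ± 0.07, limma adjusted p = 0.000281, 0.0143 and 0.0307), and so did Mrpl49 and Mrpl27. Mrpl21 became the gene of largest difference in STAT3KO against WT, at 0.85 ± 0.12 (limma adjusted p = 0.000584). Mrpl33 went to 0.68 ± 0.13 in STAT3KO and 0.42 ± 0.13 in TLR9KO against WT (limma adjusted p = 0.00309 and 0.0586), losing the latter call. Mrpl22 no longer passed against WT in either knockout (0.09 ± 0.06 and 0.19 ± 0.06), Mrps18c lost both of its calls, Mrpl1, Mrpl41 and Mrps36 lost theirs in TLR9KO (limma adjusted p = 0.26, 0.0741 and 0.397), and Mrps33 lost that in TLR9KO (0.16 ± 0.07). Mrps31 went to −0.03 ± 0.08 in TLR9KO. Between the knockouts Mrpl12, Mrpl54 and Mrps18b no longer passed, and Mrps18a lost its call against WT. The part of sequence composition in the differences was not tested beyond this correction.

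**Figure D4:**
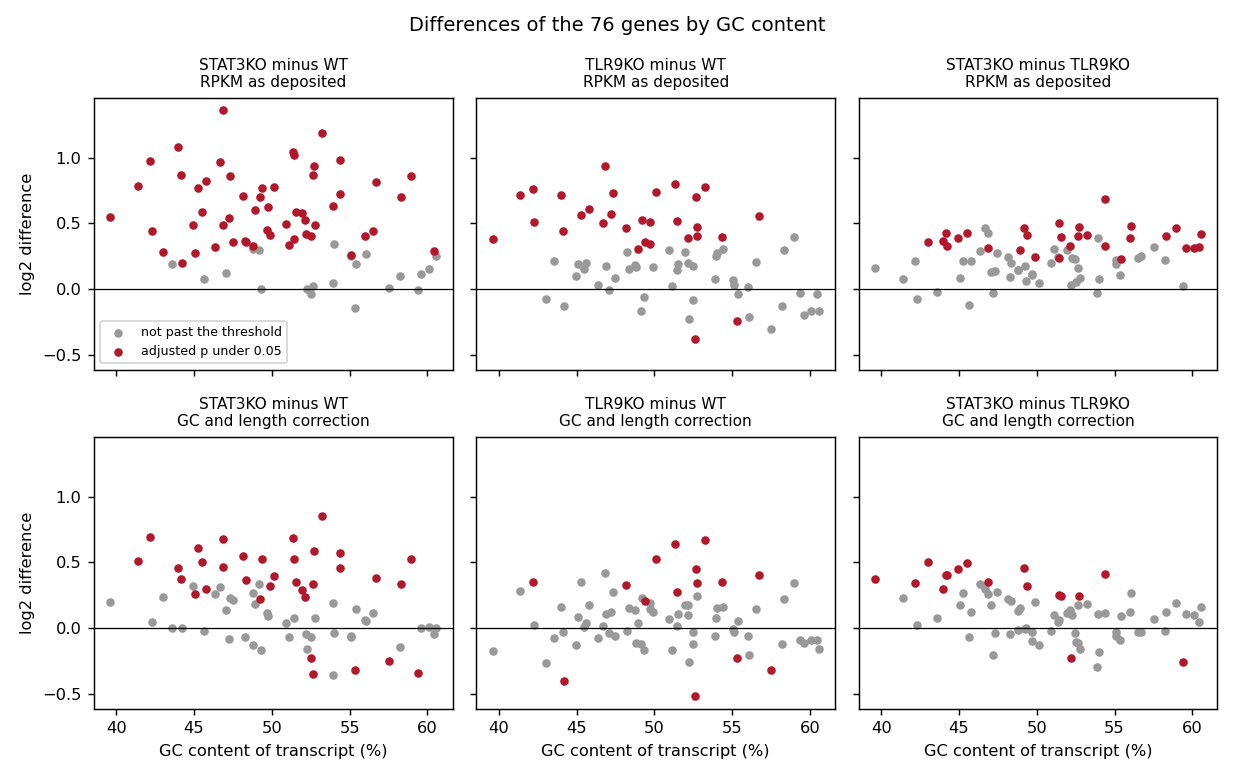
Log2 difference (y axis) of the 76 genes against the GC content of the transcript in percent (x axis), for the RPKM as deposited (top) and after the GC and length correction (bottom), 1 panel per comparison; red points passed an adjusted p under 0.05. In STAT3KO against WT the red points number 55 above the zero line at the top, and 29 above and 5 below it at the bottom.

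With median-ratio scaling, which moved the median of all genes in STAT3KO against WT from 0.09 to −0.02, 42 genes rose and 1, Mrpl37, fell (20.5% and 21.7% of tested genes). In TLR9KO against WT 23 rose and 2 fell (15.9% and 14.6% of tested genes). Under this scaling the median log2 difference of the 76 genes was above that of all genes in each of the 3 comparisons (0.32, 0.14 and 0.18, against −0.02, −0.02 and 0.01).

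In GENCODE M21 (GRCm38), exons of 23 of the 76 genes overlap those of another coding gene, in 20 cases on the opposite strand. Among the genes described, Mrpl46 overlaps Mrps11, Mrpl27 overlaps Eme1, Mrpl49 overlaps Syvn1, Mrpl18 overlaps Tcp1, Mrpl13 overlaps Mtbp, Mrpl9 overlaps Oaz3, Mrpl44 overlaps Wdfy1, Mrpl21 overlaps Ighmbp2 and Mrps30 overlaps B430218F22Rik. Of other genes named here, Mrpl43 overlaps Twnk, Mrpl14 overlaps Tmem63b, Mrpl48 overlaps Rab6a, and Mrps24 overlaps Urgcp on the same strand. Whether the counting used strand is not given in the sources used here, so reads of such pairs may not be told apart. Mrpl23, Mrpl48 and Mrps36 have a pseudogene named after them, with -ps, in that annotation and are uncertain to the extent that reads were shared. Pseudogenes under other names were not counted, so other genes may have them.

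Other genes of the mitochondrial translation system were counted from lists by role. Among all tested genes, 29.2% rose and 14.8% fell in STAT3KO against WT, 20.0% rose and 10.6% fell in TLR9KO against WT, and 13.4% were higher and 9.46% lower in STAT3KO than in TLR9KO. With the GC and length correction these shares were 20.5% and 18.0%, 8.39% and 6.38%, and 9.72% and 9.64%. A list of 8 genes with other symbols held further mitochondrial ribosomal proteins and Oxa1l, the inner membrane insertase that the mitochondrial ribosome binds. Of these 8, 5 rose in STAT3KO against WT, 1 in TLR9KO against WT and 3 were higher in STAT3KO than in TLR9KO. None was lower. The correction left 1, 0 and 2 higher in these comparisons. Chchd1, a small-subunit protein, stood at 20.6, 19.7 and 21.8 RPKM in WT, 21.6, 26.5, 30.6 and 28.8 in TLR9KO and 34.5, 33.5, 33.2 and 35.6 in STAT3KO (0.70 ± 0.11, limma adjusted p = 0.000461 for STAT3KO against WT), and was the 1 that rose in TLR9KO (0.35 ± 0.11, limma adjusted p = 0.0269), a call lost in 5 of the 11 omissions of 1 library (limma adjusted p up to 0.0802). Mrp63 and Gadd45gip1, both large-subunit proteins, were higher in STAT3KO than in TLR9KO by 0.49 ± 0.11 and 0.44 ± 0.09 (limma adjusted p = 0.0122 and 0.0065).

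Of 13 translation factors tested, 7 rose and 1 fell in STAT3KO against WT, and 3 rose and 1 fell in TLR9KO, shares near those of all tested genes in TLR9KO. With the correction 6 rose and 2 fell in STAT3KO, and 0 rose and 2 fell in TLR9KO. The gene that fell in both was Tufm, the elongation factor that brings transfer RNA to the ribosome, at 49.4, 39.2 and 42.4 RPKM in WT, 27.8, 33.5, 27.4 and 28.4 in TLR9KO and 37.2, 36.7, 32.05 and 35.5 in STAT3KO (−0.56 ± 0.10, limma adjusted p = 0.00254 for TLR9KO, and −0.29 ± 0.10, limma adjusted p = 0.0367 for STAT3KO). The STAT3KO call of Tufm was lost in 5 of the 11 omissions of 1 library (limma adjusted p up to 0.162), without the filter on low values (0.0587) and with the replicate block (0.0733). Every library of either knockout was below every WT library. Pdf, which removes the formyl group from new chains, and Mtrf1l, a release factor, rose in STAT3KO by 0.49 ± 0.08 and 0.54 ± 0.09 (limma adjusted p = 0.000622 and 0.000823). Mtif3, an initiation factor, stood higher in STAT3KO than in TLR9KO (0.49 ± 0.10, limma adjusted p = 0.00636).

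Of 22 assembly factors tested among 24 in the files, 12 rose in STAT3KO against WT, 4 rose in TLR9KO and 10 were higher in STAT3KO than in TLR9KO; none was lower. The share in TLR9KO, 18.2%, was below that of all tested genes. With the correction 9, 2 and 4 were higher, and 1 was lower in STAT3KO than in TLR9KO. Rpusd4, a pseudouridine synthase that acts on the large-subunit RNA, rose by 0.78 ± 0.08 in STAT3KO (limma adjusted p = 6.56e-05). Mterfd1, a protein needed for large-subunit assembly, rose in both, at 1.89, 2.05 and 1.67 RPKM in WT, 5.20, 4.53, 6.13 and 4.63 in TLR9KO and 4.41, 3.73, 5.15 and 4.91 in STAT3KO (1.09 ± 0.12, limma adjusted p = 0.000248 for TLR9KO), and Gtpbp10, a GTPase of large-subunit assembly, rose in TLR9KO by 0.61 ± 0.08 (limma adjusted p = 0.000774). Ddx28, an RNA helicase, and Rbfa, which binds the small-subunit RNA, were higher in STAT3KO than in TLR9KO by 0.49 ± 0.07 and 0.48 ± 0.10 (limma adjusted p = 0.00157 and 0.00861).

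Of 7 genes of mitochondrial transcription and DNA maintenance tested, 3 rose in STAT3KO against WT, and 3 rose and 1, the mitochondrial RNA polymerase Polrmt, fell in TLR9KO (−0.24 ± 0.08, limma adjusted p = 0.0363). The call of Polrmt was lost in 9 of the 11 omissions of 1 library (limma adjusted p up to 0.161), and its difference turned to 0.10 with the GC and length correction (limma adjusted p = 0.344). With that correction 4 of the 7 rose in STAT3KO and none passed in TLR9KO. Ssbp1, the single-strand DNA-binding protein, stood at 4.16, 3.64 and 3.88 RPKM in WT, 5.71, 7.00, 7.35 and 6.52 in TLR9KO and 8.18, 9.07, 8.44 and 9.71 in STAT3KO, the 3 groups separate (1.01 ± 0.09, limma adjusted p = 3.11e-05 for STAT3KO against WT). Tfam, which packs mitochondrial DNA and starts its transcription, rose by 0.43 ± 0.09 in STAT3KO and 0.40 ± 0.09 in TLR9KO (limma adjusted p = 0.0031 and 0.0075).

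Of 20 mitochondrial aminoacyl-tRNA synthetases, which charge transfer RNAs, 4 rose in STAT3KO and 4 in TLR9KO against WT, a share below that of all tested genes in STAT3KO and near it in TLR9KO. Yars2 rose in both, by 0.58 ± 0.10 and 0.39 ± 0.10 (limma adjusted p = 0.000792 and 0.0112), and Hars2 by 0.33 ± 0.08 in STAT3KO (limma adjusted p = 0.00655). Lars2 stood far from the rest, at 49.1, 35.99 and 43.05 RPKM in WT, 364, 399, 354 and 271 in TLR9KO and 33.9, 31.2, 38.4 and 31.8 in STAT3KO (2.99 ± 0.14, limma adjusted p = 1.93e-06 for TLR9KO against WT). All 4 TLR9KO libraries were several times above every other library, a difference larger than that of any of the 76 ribosomal protein genes.

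Of 10 regulators of mitochondrial biogenesis, 2 rose in STAT3KO against WT and 1 in TLR9KO, shares below those of all tested genes, and 4 and 2 with the correction. Myc, a growth-promoting transcription factor, stood at 14.4, 12.5 and 13.2 RPKM in WT, 12.9, 11.4, 8.15 and 13.2 in TLR9KO and 24.01, 29.5, 22.7 and 21.2 in STAT3KO (0.81 ± 0.16, limma adjusted p = 0.00186 for STAT3KO against WT). Gabpa, the DNA-binding subunit of the ETS factor GABP, stood at 3.96, 5.19 and 3.86, 7.13, 6.58, 6.58 and 6.69 and 6.33, 5.68, 6.56 and 5.89 RPKM and rose in both knockouts (0.42 ± 0.10 and 0.55 ± 0.10, limma adjusted p = 0.00475 and 0.00218). Nrf1 passed only between the knockouts (0.23 ± 0.06, limma adjusted p = 0.0198), and lost that call in 4 of the 11 omissions of 1 library (limma adjusted p up to 0.0604). Among these genes outside the 76, the GC and length correction ended the TLR9KO calls of Gtpbp10, Ssbp1, Tfam, Mtrf1l and Gabpa (limma adjusted p = 0.763, 0.189, 0.0928, 0.122 and 0.0774), both calls of Chchd1 against WT, those of Mrp63 and Gtpbp10 in STAT3KO, and those of Pdf and Nrf1 between the knockouts.

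For comparison, 2 other large sets of protein genes of the cell's ribosomes and respiratory chain were counted in the same way. Over all tested genes, 29.2% rose and 14.8% fell in STAT3KO against WT, and 20.0% rose and 10.6% fell in TLR9KO. With the GC and length correction these were 20.5% and 18.0%, and 8.39% and 6.38%. Of 76 cytosolic ribosomal protein genes tested, 55 rose and none fell in STAT3KO against WT, and 31 rose and 2 fell in TLR9KO, with median log2 differences of 0.63 and 0.33. With the GC and length correction, 32 rose and 5 fell in STAT3KO and 14 rose and 4 fell in TLR9KO, with medians of 0.22 and 0.09. Of 82 oxidative phosphorylation subunits tested, 55 rose and 2 fell, and 31 rose and 4 fell, with medians of 0.46 and 0.27. With the correction, 30 rose and 10 fell in STAT3KO and 10 rose and 7 fell in TLR9KO, with medians of 0.09 and 0.07. The medians of the 76 mitochondrial ribosomal protein genes were 0.44 and 0.20, below both, and 0.19 and 0.06 with the correction, where the STAT3KO median was above that of the oxidative phosphorylation subunits. The difference between these sets was not tested.

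Markers of some cell types also differed between genotypes. Of all tested genes, 29.2% rose and 14.8% fell in STAT3KO against WT, and 20.0% rose and 10.6% fell in TLR9KO. With the GC and length correction these were 20.5% and 18.0%, and 8.39% and 6.38%. Of 8 macrophage markers, 5 rose and 1 fell in STAT3KO against WT, and their summed level ran from 3526 to 4130.4 RPKM in WT, 3561 to 5486 in TLR9KO and 4989 to 6355 in STAT3KO. The correction left 3 that rose and 1 that fell, and median-ratio scaling 2 and 1 (20.5% and 21.7% of tested genes). Of 8 proliferation markers, 3 rose in STAT3KO and 1 in TLR9KO, with sums of 159 to 226, 170.2 to 227 and 247 to 355 RPKM. These shares were 37.5% and 12.5%, and with the GC and length correction 1 and 0 rose. Erythroid markers fell in both knockouts, 4 of 4 tested (42.6 to 169, 0.560 to 3.31 and 2.72 to 49.6 RPKM), and fibroblast markers rose in both, 3 of 3 tested of 6 listed (1.38 to 3.38, 8.41 to 37.4 and 12.02 to 26.4 RPKM). With the correction 2 of the 4 erythroid markers fell in each knockout, and the 3 fibroblast markers still rose in both. All 4 erythroid markers lay below WT without overlap in TLR9KO, but only 1 did in STAT3KO (13.3% and 16.9% of tested genes). Monocyte markers summed to 328 to 499.8, 476 to 832 and 633 to 2039 RPKM, and 1 of 5 rose and 1 fell in STAT3KO against WT. Dendritic cell markers summed to 138 to 210.2, 78.5 to 149 and 27.2 to 61.2 RPKM, lower in every STAT3KO library than in any other, and 1 of 3 tested of 6 listed fell in STAT3KO against WT. Neutrophil markers summed to 29.6 to 60.5 RPKM in WT and 31.1 to 67.2 in TLR9KO, and to 47.4, 543, 70.5 and 77.6 in STAT3KO, and none of the 6 tested passed against WT. The high sum is that of STAT3KO replicate 2, the library that stood highest of its group for many of the 76 genes. Melanocyte markers summed to 454 to 1446, 488 to 1394 and 834 to 1282 RPKM with none of 7 past the threshold, and the T cell gene Cd3e stood at 0.06 to 4.02 RPKM. The 8 T and NK cell markers summed to 5.07 to 23.58, 2.6 to 15.55 and 3.82 to 17.7 RPKM, and none of 2 tested passed. B cell markers summed to 0.62 to 0.82, 0.71 to 1.61 and 1.7 to 4.65 RPKM, and the 1 tested of 4 listed rose in STAT3KO. Endothelial markers summed to 7.82 to 22.08, 6.8 to 15.21 and 4.83 to 8.19 RPKM, and 1 of 2 tested of 4 listed fell in STAT3KO. Itgam, which encodes CD11b, stood at 294 to 313, 177 to 328 and 191 to 228 RPKM in WT, TLR9KO and STAT3KO (−0.47 ± 0.17, limma adjusted p = 0.0416 for STAT3KO against WT). The 5 pan myeloid markers, Itgam among them, summed to 3399 to 4883, 4402 to 7824 and 6328 to 8984 RPKM, and 2 rose and 1 fell in STAT3KO. With the GC and length correction 2 rose and none fell, so the call of Itgam was lost. The part of these cell types in the differences of the ribosomal protein genes was not tested.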

How the data were processed

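The authors deposited 1 RPKM value per gene symbol and library, rounded to 2 decimals, per the file headers; the header of TLR9KO replicate 4 names no unit. Reads were processed with TopHat 1.3.1, Bowtie 0.12.7, CASAVA 1.7 and Partek on the build mm9, per the submitters' processing notes, which give no roles. Not given in the sources used here are the annotation, the denominator of the scaling, the use of strand and the handling of multi-mapping reads. Values were taken as log2(RPKM + 1) for the 10557 genes averaging 1 RPKM or more over the 11 libraries. Differences on this scale understate those of low genes. All 11 libraries entered 1 limma 3.58.1 fit (R 4.3.3, trended empirical Bayes), with Benjamini-Hochberg adjustment over all genes tested and a threshold of 0.05. The fit was also run on simulated data with independent noise in each gene. These had no shifts of whole libraries and no trends with GC content or length, so the run cannot show how the fit handles them. GC content and length came from GENCODE M21 transcripts for 10428 of these genes (98.8%) and all 76 members, and were corrected in an alternative fit with splines of 5 degrees of freedom. A single transcript stood for each gene, the longest with a RefSeq match where there was one, protein-coding ones first. Its length may differ from the length behind the deposited RPKM. No coordinates were taken from mm9. Tables were made with Python 3.11.15, pandas 2.3.3 and numpy 2.4.6. Genes were named by smallest p per comparison (up to 6 a direction), highest and lowest mean, separation of all 3 genotypes and, for related lists, smallest p; Mrpl33, Mrpl21, the Mrps18 paralogues, Mrps36, Mrpl2, Mrpl10, Mrpl14 and Polrmt were added after their values were seen. The members and lists were chosen with earlier results of these data known. Alternatives were another pseudocount, other filters, median-ratio scaling, the GC and length correction, a replicate block, library weights, other variance priors, a fit of only the groups compared, and leaving out each library.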

Additional observations from a re-analysis of the deposited data

Results flagged for a closer look

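Each of the 76 genes was checked for a library that stood apart within TLR9KO or within STAT3KO, by its gap to the nearest library over the range of the group (Dixon's test at the 95% level for 4 libraries). Of 152 groups, 8 were marked (5.26%), where chance marks about 1 in 20. STAT3KO replicate 2 was high in 4 of them. Mrpl23 stood there at 51.05 RPKM against 38.55 to 40.58 in the others. Mrps12, whose bacterial counterpart sits at the decoding centre, stood at 38.19 against 27.2 to 28.52 RPKM, Mrps23 at 36.05 against 30.79 to 31.64, and Mrps26 at 37.33 against 27.85 to 29.06. STAT3KO replicate 3 was low in 2: Mrpl22 stood at 9.26 against 10.44 to 10.62 RPKM, and Mrpl50 at 6.04 against 6.71 to 6.82. TLR9KO replicate 1 was low in 2: Mrpl28 stood at 30.31 against 31.96 to 32.23 RPKM, and Mrpl49 at 7.65 against 8.66 to 8.82. The 2 STAT3KO libraries and the TLR9KO library named here are also those highest or lowest in their groups for many of the 76 genes. WT, with 3 libraries, was not checked.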

How the results depend on the processing

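With the GC and length correction, 29 members rose and 5 fell in STAT3KO against WT (from 55 and 0), 11 and 4 in TLR9KO against WT (from 28 and 2), and 15 and 2 in STAT3KO against TLR9KO (from 29 and 0). Over all genes in TLR9KO against WT the calls went from 2107 and 1122 to 875 and 665. The sign turned in STAT3KO against WT for Mrpl20, Mrpl41, Mrpl54, Mrps10, Mrps17, Mrps24, Mrps30 and Mrps36 (−0.0652, −0.0488, −0.0464, −0.0667, −0.0699, −0.0717, −0.0023 and −0.0811) and in TLR9KO against WT for Mrps14, Mrps31, Chchd1 and Polrmt (−0.18, −0.0323, −0.0645 and 0.10). Same-numbered libraries of different genotypes deviated together with correlations of −0.29 to 0.49, over 0.1 in 4 of 10 pairs, and differently numbered ones with −0.61 to 0.53, so the numbers were not taken to pair samples. With the replicate block, 47, 25 and 16 members were higher in the 3 comparisons and 0 were lower in TLR9KO. With the replicate block and the GC and length correction together, 22, 6 and 11 were higher and 5, 2 and 0 lower, and over all genes 1830, 517 and 796 were higher and 376 lower in TLR9KO. The same 12 signs turned (−0.0486, −0.0574, −0.052, −0.0618, −0.0678, −0.0712, −0.00977 and −0.0867, then −0.20, −0.0234, −0.10 and 0.0985). Median-ratio scaling gave 1 member lower in STAT3KO against WT and 15 higher in STAT3KO against TLR9KO, where 919 of all genes were higher (from 1410). Library weights gave 1 member lower in STAT3KO against WT, 44 higher in STAT3KO against TLR9KO, 1733 of all genes lower in TLR9KO against WT, and 2297 higher and 1510 lower in STAT3KO against TLR9KO (from 1410 and 999). Without the filter on low values, and with only the groups compared, 1 member was lower in TLR9KO. Leaving out 1 library at a time gave 47 to 57 members higher in STAT3KO against WT and none lower, 22 to 35 higher and 0 to 3 lower in TLR9KO against WT, and 12 to 36 higher in STAT3KO against TLR9KO and none lower. Over all genes these ran 2494 to 3195 and 1173 to 1680, 1383 to 2247 and 602 to 1383, and 869 to 1582 and 636 to 1121. The cause of these changes was not tested. A pseudocount of 0.1 and a minimum of 5 RPKM kept every member count within 1.5 times. Without counts, depth could only be estimated, so low genes such as Mrpl1 and Mtrf1l carry an error not stated in the values.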
